A study of Mus musculus with 1104 samples.

Results

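Olfactory bulbs of male mice that had eaten a high-fat diet for 12 weeks were compared with bulbs taken on the day the diet began, by RNA-seq of poly(A) RNA. The libraries were chosen by the organ, time and replicate in their column names, 6 for each of the 2 time points, which makes 12 of the 1104 libraries of the series. Of 20646 genes in the deposited count table, 14935 had enough counts in the bulb to be tested, and all of these were compared. The series followed 13 organs of mice on this diet, with 6 mice per time point and 14 time points in the bulb. All animals were wild-type male C57BL/6 mice by the labels (C57BL/6J in the series description). The 12-week mice had eaten food with 60 kcal% fat since 8 weeks of age and were 20 weeks old. The 0-day mice were 8 weeks old and were dissected at the onset of that diet. Diet, age and the day of dissection differ together between these groups and cannot be told apart, and age-matched mice on other food were not analysed here. Cages held up to 6 mice, so that a cage may also coincide with a group. The labels give no animal or cage for a library, so p-values measure the spread between these samples, which may be technical.

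The olfactory bulb is the first relay of the sense of smell. Mitral and tufted cells receive the axons of olfactory sensory neurons and project to the cortex, while granule and periglomerular cells, most of them GABAergic, shape their output. In mice the interneurons are renewed through life by neuroblasts that migrate in from the wall of the lateral ventricle. Proteins that enter the endoplasmic reticulum are folded by chaperones such as Hspa5, and when unfolded protein accumulates the factors Xbp1 and Atf4 raise the genes of folding, export and degradation. Peptides are stored with granins in dense-core granules and released by calcium.

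The label of the tissue was checked by marker genes of bulb cells. In the 12 libraries the mitral and tufted cell markers summed to 2011 to 2122 CPM (median 2073) at 12 weeks, against 2077 to 2239 CPM (median 2154) at 0 days, where CPM is the count scaled to library size. Cdhr1, a cadherin-like protein of mitral and tufted cells, had 489 to 558 CPM in the 12-week libraries (median 507), against 506 to 562 CPM in the 0-day libraries (median 522). Th, which makes the precursor of dopamine in periglomerular cells, had 191 to 218 CPM in the 12-week libraries (median 211), against 172 to 199.6 CPM in the 0-day libraries (median 193). Both markers were abundant in every library of the comparison, and the groups overlapped. One bulb library of another time point, 4 weeks replicate 6, went against its label. Its Cdhr1 was at 15.2 CPM where the other 83 bulb libraries had 463 to 582 CPM, its Eomes, a transcription factor of mitral and tufted cells, was at 0 CPM against 121 to 162 CPM, and its Th was at 2.49 CPM against 156 to 244 CPM. The library labelled 4 weeks replicate 6 had in turn 5498 CPM of the myelin gene Mbp, against 1032 to 1697 CPM in the others. It is in neither group compared here, but it shares the estimate of spread with them, so the main counts of genes are given over all 84 bulb libraries and again over the 83 without it.

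Library totals were 11791281 to 14511355 counts at 12 weeks and 12025568 to 20875631 counts at 0 days. At 12 weeks, genes with GC-rich transcripts stood higher and genes with GC-poor transcripts lower. The difference between the GC-richest and GC-poorest quintile of genes, as a median log2 deviation from each gene's mean, was between -0.15 and 0.14 in the 12-week libraries (median 0.09), against -0.23 to -0.13 in the 0-day libraries (median -0.18). Replicate 2 at 12 weeks lay within the range of the 0-day libraries, and the other 5 lay above it. Of genes in the poorest quintile 0.915% rose and 25.9% fell, and of those in the richest quintile 27.3% rose and 1.02% fell. Counts of genes are therefore also given with offsets for the GC content and length of transcripts. The part of the tilt in each result was not tested beyond that.

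Expression differed in a large share of genes, mostly by small amounts. At an adjusted p under 0.05 by edgeR's quasi-likelihood test, 3107 genes (20.8%) were called at 12 weeks against 0 days. Of these 1615 (10.8%) rose and 1492 (9.99%) fell. The median absolute log2 fold change of the called genes was 0.22. Only 199 called genes (1.33%) changed at least 1.5-fold, 70 upwards and 129 downwards, and 59 changed at least 2-fold. The 12-week libraries lay wholly above the 0-day libraries in 5.03% of all genes and wholly below them in 4.89%. Without the library labelled 4 weeks replicate 6, 4310 genes (28.8%) were called, 2085 higher (13.9%) and 2225 lower (14.9%), and 3103 of the 3107 were among them. With the offsets 1674 genes were called over 84 libraries, 1043 higher (6.98%) and 631 lower (4.22%), and 2828 over 83 libraries, 1766 higher (11.8%) and 1062 lower (7.09%). Without replicate 2 at 12 weeks 3360 genes were called over the other bulb libraries, 1717 higher and 1643 lower.

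**Figure D1:**
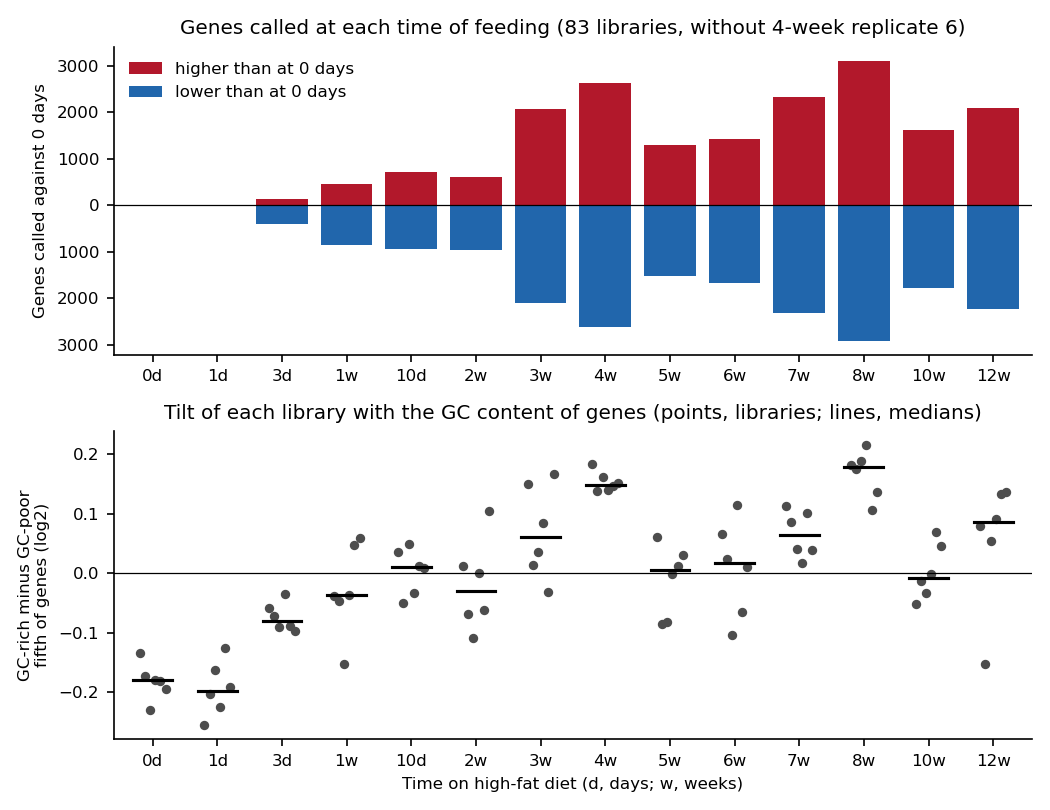
Top, genes called higher (red, upward) or lower (blue, downward) than at 0 days at each time on the diet, by edgeR over 83 bulb libraries (n = 6 per time point, n = 5 at 4 weeks). Bottom, the tilt of each of the 84 libraries with GC content (log2, richest minus poorest quintile of genes; points are libraries and lines medians). At 12 weeks 2085 genes were higher and 2225 lower, and the highest number of calls was at 8 weeks, where the median tilt was also highest at 0.18.

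The number of genes called against 0 days was low in the first days and varied later. At 1 day none was called by edgeR over 84 libraries, with 802 at an unadjusted p under 0.05, and none with the other size factors tried. There were 139 genes (0.931%) at 3 days, 584 (3.91%) at 1 week, 777 (5.2%) at 10 days and 727 (4.87%) at 2 weeks. Calls then numbered 3005 (20.1%) at 3 weeks, 5956 (39.9%) at 4 weeks, 1713 (11.5%) at 5 weeks and 1969 (13.2%) at 6 weeks. They numbered 3399 (22.8%) at 7 weeks, 4892 (32.8%) at 8 weeks and 2202 (14.7%) at 10 weeks. All of these comparisons use the same 0-day libraries, and the median GC tilt was highest at 4 weeks (0.15) and 8 weeks (0.18). The 4-week group includes the library labelled 4 weeks replicate 6. Without that library 5252 genes were called at 4 weeks, with 4167 of the 5956 among them, and 6023 at 8 weeks. The plot of calls over time gives the counts over 83 libraries.

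The folding machinery of the endoplasmic reticulum rose at 12 weeks. Of 14 genes of the unfolded protein and integrated stress response, 10 rose and 0 fell, against 10.8% and 9.99% of all genes. Their median log2 fold change was 0.33, against 0.00 over all genes. The list summed to 1117 to 1275 CPM (median 1182) at 12 weeks, against 871 to 1036 CPM (median 937) at 0 days. Without the library labelled 4 weeks replicate 6 the count was again 10, and with offsets added it was 9. The genes that rose were Sdf2l1, Chac1, Xbp1, Creld2, Manf, Hspa5, Atf4, Herpud1, Calr and Sesn2.

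Promoters of 4 of these genes hold the response elements through which ATF6 and XBP1 are known to act, and these are shown because the genes of the list that carry them rose. The 250 bases before the start were searched on both strands in RefSeq promoters (GRCm38.p6), which 13 of the 14 genes have. The endoplasmic reticulum stress element, CCAAT and CCACG with 9 bases of any kind between them, was found before Hspa5, Creld2 and Calr and in 0.113% of 32851 promoters. Its second form, ATTGG and CCACG with 1 base between them, was found before Herpud1 and in 0.0304% of promoters. Each stretch is given 5′ to 3′ on the strand of the gene, with the element in capitals, which reads as its reverse complement where it lies on the other strand. The stretches are chr2:34771995-34772073, plus strand for Hspa5, chr15:88819490-88819568, plus strand for Creld2, chr8:84847045-84847123, minus strand for Calr and chr8:94386347-94386417, plus strand for Herpud1.
Hspa5: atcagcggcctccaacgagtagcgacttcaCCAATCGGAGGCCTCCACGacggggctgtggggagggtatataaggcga
Creld2: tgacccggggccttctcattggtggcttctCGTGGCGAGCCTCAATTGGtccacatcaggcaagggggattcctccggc
Calr: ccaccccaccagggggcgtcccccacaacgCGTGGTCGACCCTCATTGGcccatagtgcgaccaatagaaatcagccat
Herpud1: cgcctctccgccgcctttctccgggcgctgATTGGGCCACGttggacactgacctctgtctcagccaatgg
The core TGACGTGG was found in none of the 13, and in 0.563% of all promoters. The amino acid response element core TGATGNAA, through which ATF4 acts, was found before Chac1 and Herpud1, which rose, and before Asns and Atf3, which did not pass the test. It occurs in 3.45% of all promoters. These matches describe the sequence and were not tested as sites.

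Sdf2l1, a resident of the chaperone complex of the endoplasmic reticulum, had 7.82 to 12.7 CPM in the 12-week libraries (median 10.8), against 4.56 to 5.96 CPM in the 0-day libraries (median 5.29). Its 12-week libraries all lay above the 0-day ones, at a log2 fold change of 0.96 ± 0.15 (SE; adjusted p = 8.8e-07, edgeR). Xbp1, the transcription factor of the IRE1 branch, had 87.0 to 106 CPM in the 12-week libraries (median 88.9), against 57.0 to 70.5 CPM in the 0-day libraries (median 61.8). These groups did not overlap either, and the log2 fold change was 0.55 ± 0.07 (adjusted p = 1.4e-08). Hspa5, the main chaperone of the compartment, had 262 to 339 CPM in the 12-week libraries (median 287), against 190.5 to 257 CPM in the 0-day libraries (median 226). It rose by 0.39 ± 0.09 (adjusted p = 0.0012) with no overlap, and 3 of the genes whose promoters are shown above, Creld2, Calr and Herpud1, had log2 fold changes of 0.44 ± 0.09, 0.29 ± 0.06 and 0.32 ± 0.08, each also with all 12-week libraries above all 0-day libraries. Manf, a secreted protein of the stressed reticulum, rose by 0.42 ± 0.08 (adjusted p = 2.6e-05).

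Atf4, a transcription factor of the integrated stress response, had 137 to 151 CPM in the 12-week libraries (median 139.8), against 105 to 122 CPM in the 0-day libraries (median 111.9), with no overlap and a log2 fold change of 0.33 ± 0.04 (adjusted p = 4.1e-08). Chac1, a glutathione-degrading enzyme and target of Atf4, had 6.23 to 8.20 CPM in the 12-week libraries (median 6.99), against 3.09 to 5.20 CPM in the 0-day libraries (median 4.12). It too lay wholly above, at 0.77 ± 0.13 (adjusted p = 9.0e-06). Sesn2, which restrains growth signalling under stress, rose by 0.22 ± 0.08 (adjusted p = 0.033). That call was lost when any 1 of 8 of the 12 libraries was left out (adjusted p 0.053 to 0.12; replicates 1, 5 and 6 at 12 weeks and 1, 3, 4, 5 and 6 at 0 days), and with offsets its adjusted p was 0.45. The other 4 members of the list did not pass, among them Asns, asparagine synthetase, at 0.10 ± 0.08 (adjusted p = 0.37), and the transcription factor Atf3 at -0.16 ± 0.29 (adjusted p = 0.75).

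Several chaperones of the cytosol rose with them. Of 14 heat shock and folding genes, 8 rose and none fell, against 10.8% and 9.99% of all genes, and Hspa5 stands in this list as well. The median log2 fold change was 0.19. Over 83 libraries with offsets 10 rose. The heat shock element is GAA, TTC and GAA with 2 bases of any kind between each pair, and was found in 0.466% of all promoters. Among the 12 members with a promoter it was found on either strand before Hspe1, which rose, and Hspd1, which did not pass. The matches of Hspe1 and Hspd1 are the same bases of chromosome 1, read from opposite strands. The endoplasmic reticulum stress element lies at 2 places before Hsp90b1, a chaperone of that compartment, which did not pass (log2 fold change 0.12 ± 0.06, adjusted p = 0.12) except with offsets (adjusted p = 0.0016). Hspb1, a small heat shock protein, had 10.4 to 14.3 CPM in the 12-week libraries (median 13.0), against 4.69 to 7.15 CPM in the 0-day libraries (median 6.52). This was one of the highest changes among all genes of at least 5 CPM, 1.01 ± 0.12 (adjusted p = 1.0e-09), and the groups did not overlap. Hspa8 and Hsph1, the constitutive chaperone and its exchange factor, rose by 0.20 ± 0.05 and 0.24 ± 0.06. Hspa1a and Hspa1b rose by 0.58 ± 0.12 and 0.56 ± 0.17, but their sequences are near identical and counting may split reads between them, and with offsets over 84 libraries Hspa1b did not pass (adjusted p = 0.076). Pdia4 and Hspe1 rose by 0.25 ± 0.08 and 0.18 ± 0.06. The Pdia4 call was lost without replicate 6 at 12 weeks (adjusted p = 0.058). The Hspe1 call was lost without any of replicates 2 and 6 at either time (adjusted p 0.052 to 0.082).

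**Figure D2:**
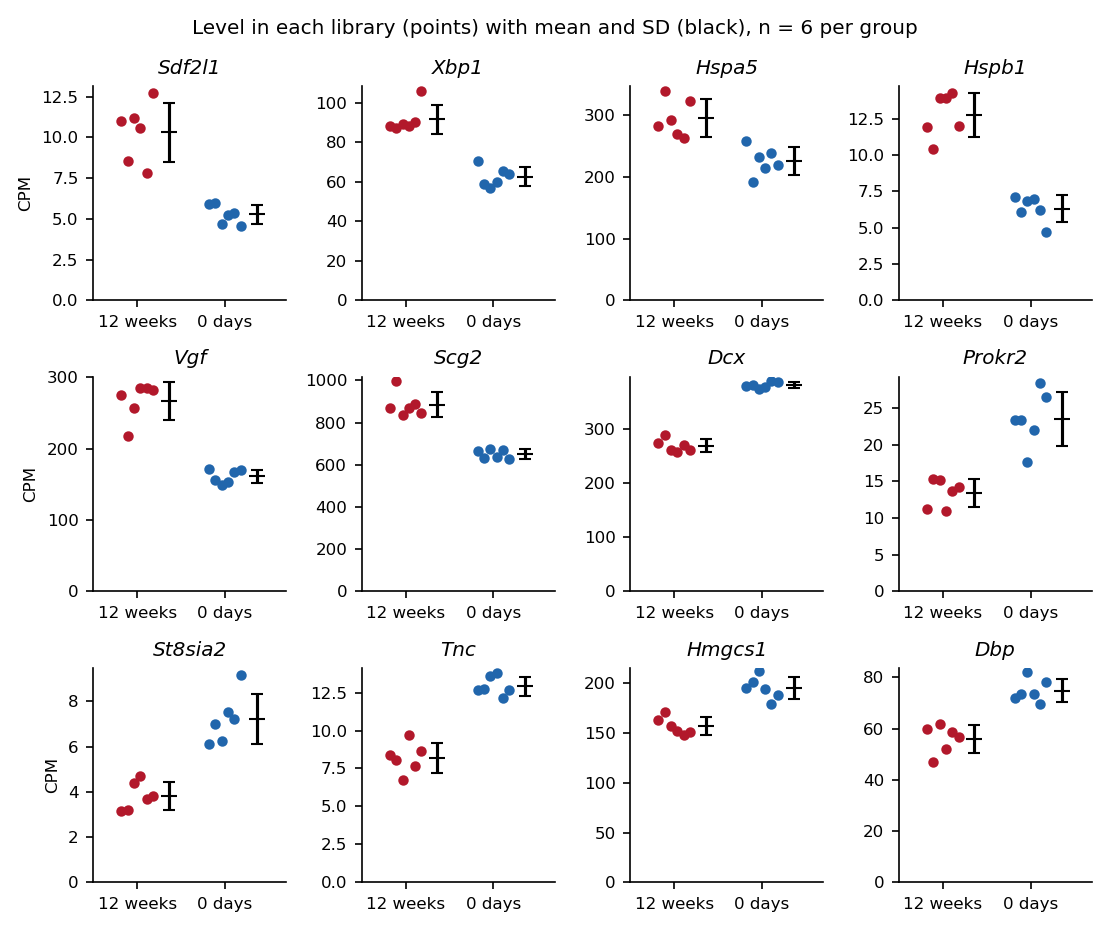
Level of 12 genes in each library (CPM; points are libraries, 12 weeks in red and 0 days in blue; black marks give the mean and SD, n = 6 each). The 12-week libraries lie wholly above the 0-day ones for Sdf2l1, Xbp1, Hspa5, Hspb1, Vgf and Scg2, and wholly below them for Dcx, Prokr2, St8sia2, Tnc, Hmgcs1 and Dbp.

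Genes of peptide storage and several peptides rose. Of 16 neuropeptide and granin genes tested, 5 rose and 0 fell over 84 libraries, against 10.8% and 9.99% of all genes. Over 83 libraries 7 rose and 1 fell. The list summed to 1823 to 1945 CPM (median 1898) at 12 weeks, against 1394 to 1489.5 CPM (median 1439.5) at 0 days, and the sums did not overlap. 1 fell without any of replicate 4 at 12 weeks and 2, 4 and 6 at 0 days. With offsets over 83 libraries the counts were 6 and 1. Ptprn, a membrane protein of dense-core granules that is not in the list, was among the 6 higher genes with the smallest p. It had 813 to 901 CPM in the 12-week libraries (median 856), against 564 to 602 CPM in the 0-day libraries (median 587), without overlap and at a log2 fold change of 0.54 ± 0.05 (adjusted p = 1.3e-11).

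Vgf, a granin-like precursor of several peptides, had 218 to 285 CPM in the 12-week libraries (median 278), against 149 to 171 CPM in the 0-day libraries (median 162). It rose by 0.73 ± 0.08 (adjusted p = 1.2e-10) with no overlap between groups. Scg2, secretogranin II, had 836 to 997 CPM in the 12-week libraries (median 869.9), against 625.3 to 676 CPM in the 0-day libraries (median 651). It rose by 0.44 ± 0.07 (adjusted p = 2.8e-06) without overlap, and the highest value was that of replicate 2 at 12 weeks. Adcyap1, the precursor of the peptide PACAP, had 28.8 to 36.6 CPM in the 12-week libraries (median 34.7), against 19.8 to 27.5 CPM in the 0-day libraries (median 23.8), at 0.51 ± 0.10 (adjusted p = 3.7e-05). Penk, the enkephalin precursor made by granule and periglomerular cells, had 247 to 279 CPM in the 12-week libraries (median 257), against 187 to 212 CPM in the 0-day libraries (median 191). Neither of these overlapped between groups, and Penk rose by 0.42 ± 0.11 (adjusted p = 0.0046).

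Crh, the stress-related releasing hormone, rose by 0.49 ± 0.17 (adjusted p = 0.028). Its call was lost without replicates 3 or 6 at 12 weeks or 1 or 4 at 0 days (adjusted p 0.051 to 0.074), and with offsets over 84 libraries (adjusted p = 0.056). Trh, the precursor of thyrotropin-releasing hormone and a periglomerular peptide, had 77.0 to 88.5 CPM in the 12-week libraries (median 86.3), against 59.5 to 74.0 CPM in the 0-day libraries (median 68.3). Its groups did not overlap, but it did not pass over 84 libraries (adjusted p = 0.21) and passed over 83 (log2 fold change 0.31, adjusted p = 1.6e-05). Cck, the cholecystokinin precursor of tufted cells, likewise passed over 83 libraries and not over 84, at 0.22 (adjusted p = 7.3e-04). Npy, a peptide of deep interneurons, had 40.4 to 54.8 CPM in the 12-week libraries (median 49.2), against 41.8 to 57.3 CPM in the 0-day libraries (median 51.7), and its log2 fold change of -0.08 ± 0.17 did not pass (adjusted p = 0.79).

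**Figure D3:**
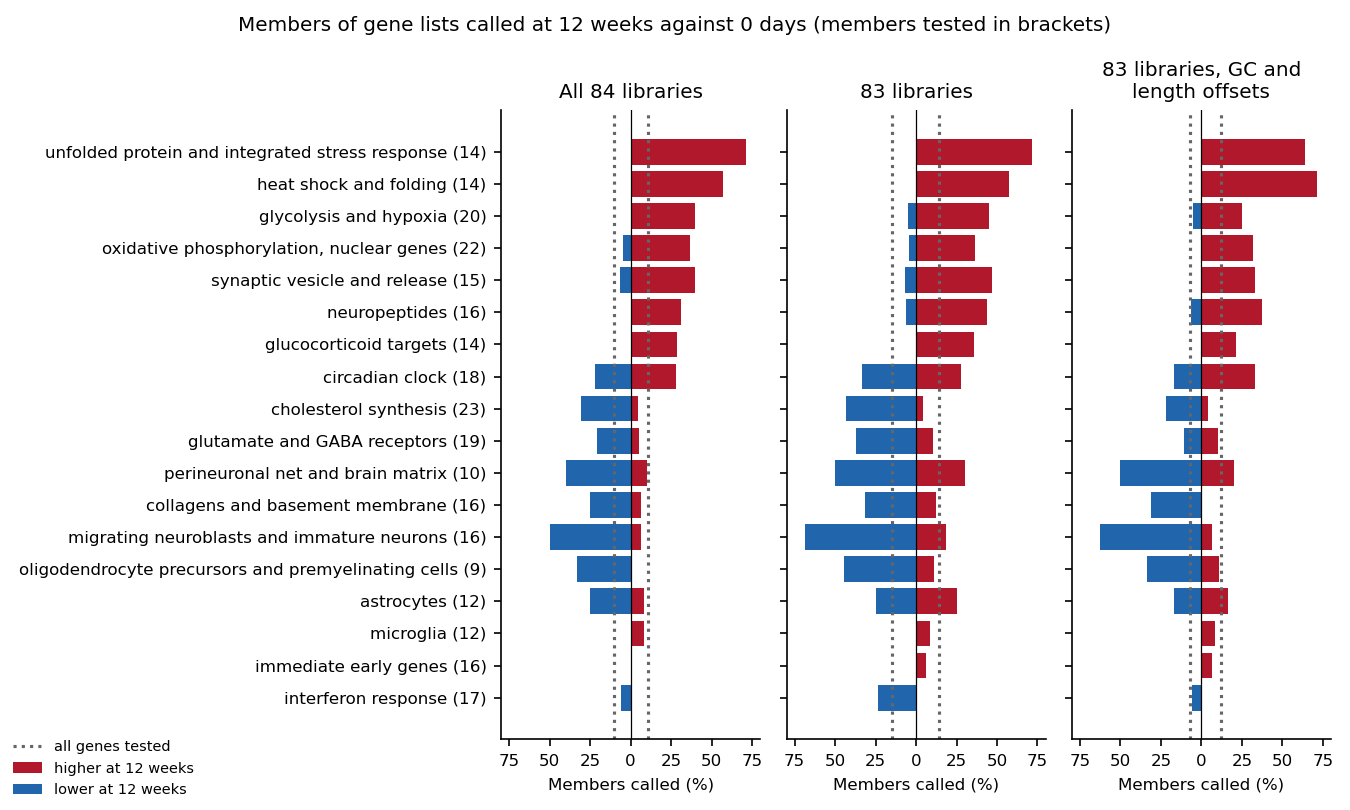
Share of the tested members of 18 gene lists called higher (red, to the right) or lower (blue, to the left) at 12 weeks against 0 days, over all 84 bulb libraries, over 83 libraries, and over 83 with the offsets. Dotted lines give the shares of all genes tested, 10.8% and 9.99% in the first panel; 10 of 14 unfolded protein response genes were higher and 8 of 16 neuroblast genes lower there.

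Of the markers of migrating neuroblasts and young neurons, more fell than rose. Among 16 such genes, 8 fell and 1 rose over 84 libraries, against 9.99% and 10.8% of all genes. Over 83 libraries 11 fell and 3 rose, against 14.9% and 13.9% of all genes. The median log2 fold change of the list was -0.22. The markers summed to 2342 to 2457 CPM (median 2369.7) at 12 weeks, against 2583 to 2723 CPM (median 2632) at 0 days, without overlap. With offsets over 83 libraries, 10 fell and 1 rose. In bulk tissue, fewer cells of a type and less RNA per cell cannot be told apart.

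Dcx, a microtubule protein of migrating neuroblasts, had 258 to 290.1 CPM in the 12-week libraries (median 267), against 375 to 390.4 CPM in the 0-day libraries (median 382). Its groups did not overlap, and the log2 fold change was -0.51 ± 0.16 (adjusted p = 0.017) over 84 libraries. The library labelled 4 weeks replicate 6 had 20.9 CPM of Dcx, and without it the change was -0.51 ± 0.04 (adjusted p = 1.8e-20). With offsets the adjusted p was 0.19 over 84 libraries and 2.5e-12 over 83. Prokr2, the receptor of a chemoattractant that guides neuroblasts into the bulb, had 11.0 to 15.3 CPM in the 12-week libraries (median 13.9), against 17.7 to 28.3 CPM in the 0-day libraries (median 23.3). It fell by 0.81 on the log2 scale with an SE of 0.14 (adjusted p = 5.2e-06) and without overlap.

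St8sia2, which attaches polysialic acid to the adhesion molecule of migrating cells and is not in the list, was among the 12 lowest changes. It had 3.17 to 4.69 CPM in the 12-week libraries (median 3.76), against 6.12 to 9.18 CPM in the 0-day libraries (median 7.11), with no overlap and a log2 fold change of -0.92 ± 0.17 (adjusted p = 3.1e-05). Dpysl3, a growth cone protein, had 111 to 126 CPM in the 12-week libraries (median 116), against 142 to 157 CPM in the 0-day libraries (median 149.8). These groups did not overlap, and Dpysl3 was among the 6 lower genes with the smallest p (adjusted p = 2.9e-10). Nrep, Cd24a, Tubb2b and Stmn1 changed by -0.46 ± 0.10, -0.47 ± 0.10, -0.25 ± 0.07 and -0.16 ± 0.05. Sox11, a transcription factor of young neurons, fell by 0.31 (adjusted p = 0.0042), but not with offsets over 84 libraries (adjusted p = 0.077).

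Marcksl1 was not called over 84 libraries and fell over 83, at -0.20 (adjusted p = 2.8e-04). Dlx5, a transcription factor of young GABAergic interneurons, went the other way and rose there, at 0.31 (adjusted p = 1.6e-05). Tubb3, a tubulin of neurons in general, rose by 0.10 ± 0.04 (adjusted p = 0.043), but its sign turned with offsets (-0.01), and the call was lost without any 1 of 8 libraries (adjusted p 0.060 to 0.17; replicates 1, 4, 5 and 6 at 12 weeks and 2, 3, 4 and 6 at 0 days). None of 11 cell division genes was called by edgeR over either 84 or 83 libraries, by DESeq2 or by limma voom, and 1 had an unadjusted p under 0.05. Their sum was 62.6 to 77.1 CPM (median 68.8) at 12 weeks, against 63.4 to 74.3 CPM (median 69.2) at 0 days.

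Some genes of perineuronal nets and brain matrix fell. Of 10 such genes 4 fell and 1 rose, against 9.99% and 10.8% of all genes, and over 83 libraries 5 fell and 3 rose. Tnc, tenascin C, had 6.77 to 9.73 CPM in the 12-week libraries (median 8.24), against 12.2 to 13.8 CPM in the 0-day libraries (median 12.7). The groups did not overlap, and the log2 fold change was -0.66 ± 0.12 (adjusted p = 2.6e-05). The proteoglycan Vcan and tenascin R, Tnr, changed by -0.38 ± 0.07 and -0.33 ± 0.04. Ncan, another proteoglycan, did not pass over 84 libraries and passed over 83, at -0.16 (adjusted p = 1.4e-06). Hapln1, a link protein, fell by 0.26 but not with offsets (adjusted p = 0.36). Of 16 collagen and basement membrane genes 4 fell and 1 rose, but without replicate 2 at 0 days 2 fell, and without replicate 6 at 12 weeks or 1 or 6 at 0 days none rose. Col3a1 changed by -0.65 ± 0.18 and Lama2 by -0.34 ± 0.08.

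Some markers of oligodendrocyte precursors fell. Of 9 precursor and premyelinating genes 3 fell and none rose over 84 libraries, against 9.99% and 10.8% of all genes. Over 83 libraries 4 fell and 1 rose. Enpp6, which marks newly formed oligodendrocytes, changed by -0.62 ± 0.13 (adjusted p = 2.7e-04). Pdgfra, the growth factor receptor of precursors, changed by -0.23 ± 0.08, but without replicate 5 at 12 weeks its adjusted p was 0.067, and with offsets over 84 libraries 0.16. Tnr is made by these cells as well. Of 14 genes of mature oligodendrocytes and myelin none was called by edgeR over 84 libraries or by DESeq2, with 1 at an unadjusted p under 0.05, while limma voom called 6. Over 83 libraries 4 fell and 3 rose. Among these, Mog had 19.1 to 22.6 CPM in the 12-week libraries (median 21.9), against 25.4 to 31.1 CPM in the 0-day libraries (median 29.3). These did not overlap, and the log2 fold change over 83 libraries was -0.44 ± 0.08 (adjusted p = 3.0e-06). The list summed to 3015 to 3199 CPM (median 3112) at 12 weeks, against 2989 to 3781 CPM (median 3385) at 0 days, and the sums overlapped.

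Counts called among markers of the resident neurons varied between fits. Of 11 mitral and tufted genes 1, Reln, was called lower over 84 libraries, at -0.28 ± 0.10, and that call was lost without any 1 of 9 libraries (adjusted p 0.051 to 0.076; all but replicates 2 and 4 at 12 weeks and 3 at 0 days) and with offsets over 84 libraries (adjusted p = 0.16). Over 83 libraries 3 fell, the added genes being Eomes at -0.12 and Doc2g at -0.12 (adjusted p = 0.016 and 0.043). Granule cell and GABAergic markers summed to 5369 to 5659 CPM (median 5459) at 12 weeks, against 5020.5 to 5538 CPM (median 5217) at 0 days. Of 9 such genes 2 rose over 84 libraries, Penk and the vesicular GABA transporter Slc32a1, the second by 0.23 ± 0.05 but not with offsets (adjusted p = 0.44). With offsets 3 rose, against 6.98% of all genes. These were Penk, Gad2 (0.17, adjusted p = 6.6e-04) and Pbx3 (0.35, adjusted p = 0.046). Over 83 libraries 4 rose and 1 fell, against 13.9% and 14.9% of all genes. With offsets added 4 rose and 0 fell, against 11.8% and 7.09%. Gad1, which makes GABA, did not pass over 84 libraries (adjusted p = 0.55) and rose over 83, at 0.09 (adjusted p = 0.016). Th rose there by 0.11 (adjusted p = 0.04), but not with offsets (adjusted p = 0.28). Omp, of sensory axons, had 124 to 152 CPM in the 12-week libraries (median 142), against 93.9 to 158 CPM in the 0-day libraries (median 134), with overlap, and did not pass over 84 libraries (adjusted p = 0.83).

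Some enzymes of cholesterol synthesis fell. Of 23 genes 7 fell and 1 rose over 84 libraries, where 9.99% and 10.8% of all genes did. The counts were 10 and 1 over 83 libraries, and 5 and 1 over 83 with offsets. The median log2 fold change was -0.15. Without replicate 4 at 12 weeks 3 fell, and 4 fell without any of replicates 5 and 6 at 12 weeks and 3 at 0 days. Hmgcs1, an early enzyme of the pathway, had 147 to 171 CPM in the 12-week libraries (median 154), against 179 to 212 CPM in the 0-day libraries (median 194). The groups did not overlap, and the log2 fold change was -0.31 ± 0.05 (adjusted p = 4.1e-07). Its promoter was the only 1 of 15 with the sterol regulatory element TCACCCCAC, which 0.496% of promoters hold. Lss and Acat2 changed by -0.30 ± 0.05 and -0.37 ± 0.07. Srebf2, the transcription factor of this pathway, went the other way at 0.23 ± 0.04 (adjusted p = 4.2e-06).

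Among these enzymes, Dhcr7, Idi1, Sc5d and Hsd17b7 also fell over 84 libraries, but not in every subset. The Dhcr7 call was lost without replicate 4 at 12 weeks (adjusted p = 0.058). Those of Idi1, Sc5d and Hsd17b7 were each lost without any of replicates 4, 5 or 6 at 12 weeks and 3 at 0 days (adjusted p 0.056 to 0.13), those of Idi1 and Sc5d also without replicate 2 at 0 days, and that of Sc5d without replicate 3 at 12 weeks. With offsets over 84 libraries the adjusted p was 0.21 for Idi1, 0.52 for Sc5d and 0.27 for Hsd17b7. Of 12 genes of fatty acid synthesis 3 fell over 84 libraries and 7 over 83, against 9.99% and 14.9% of all genes. None rose over either. Without replicate 1 at 0 days 5 fell over the other bulb libraries, and without replicate 2 at 12 weeks 1 rose. With offsets over 84 libraries 1 rose and 1 fell, against 6.98% and 4.22% of all genes. With offsets over 83 libraries 1 rose and 4 fell, against 11.8% and 7.09%. Plin4, a lipid droplet coat protein, had 8.39 to 24.6 CPM in the 12-week libraries (median 14.5), against 3.02 to 15.8 CPM in the 0-day libraries (median 6.18). It had the highest fold change of all called genes of at least 5 CPM, 1.24 ± 0.39 (adjusted p = 0.014), but the groups overlapped, and without replicate 5 at 12 weeks the adjusted p was 0.053.

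A receptor of iron uptake fell and an adaptor of insulin signalling rose. Tfrc, the transferrin receptor that takes up iron, had 86.0 to 106 CPM in the 12-week libraries (median 95.3), against 137 to 147 CPM in the 0-day libraries (median 141). All 12-week libraries lay below, at a log2 fold change of -0.58 ± 0.06 (adjusted p = 1.4e-10). Irs2, an adaptor of the insulin receptor, had 92.4 to 102 CPM in the 12-week libraries (median 95.6), against 58.4 to 69.2 CPM in the 0-day libraries (median 64.9). Here all 12-week libraries lay above, at 0.58 ± 0.12 (adjusted p = 2.9e-04). Insr, the insulin receptor itself, changed by -0.18 ± 0.04 (adjusted p = 9.1e-05), but not with offsets (adjusted p = 0.12). These were the only 2 calls among 17 insulin, leptin and feeding genes over 84 libraries, while over 83 libraries 2 rose and 5 fell. Without replicate 3 at 12 weeks 3 fell, and 2 fell without any of replicates 1 and 6 at 12 weeks and 5 and 6 at 0 days.

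Clock genes moved in both directions. Of 18, 5 rose and 4 fell over 84 libraries, against 10.8% and 9.99% of all genes. Over 83 libraries with offsets 6 rose and 3 fell, against 11.8% and 7.09%. Npas2, an activator of the loop, rose by 0.53 ± 0.10 (adjusted p = 2.3e-05). Per2, a repressor, had 68.0 to 75.4 CPM in the 12-week libraries (median 72.9), against 34.9 to 60.1 CPM in the 0-day libraries (median 54.9). The groups did not overlap, and it rose by 0.52 ± 0.12 (adjusted p = 8.7e-04). Cry1 and Bhlhe40, further repressors, rose by 0.31 ± 0.08 and 0.20 ± 0.04. Dbp, an output factor, had 46.9 to 61.7 CPM in the 12-week libraries (median 57.6), against 69.7 to 81.9 CPM in the 0-day libraries (median 73.5). It fell by 0.41 on the log2 scale (adjusted p = 1.1e-05), with no overlap. Per3 changed by -0.17 ± 0.05 and Nr1d2 by -0.20 ± 0.05, the second not with offsets (adjusted p = 0.23). The calls of Bhlhe41 (0.18) and Hlf (-0.11) were lost without any of 10 and any of 4 libraries, with adjusted p of 0.055 to 0.14 and 0.055 to 0.088. For Bhlhe41 the 10 were all but replicate 2 at 12 weeks and 5 at 0 days, and for Hlf they were replicates 4 and 5 at 12 weeks and 3 and 4 at 0 days. With offsets Hlf did not pass either (-0.02, adjusted p = 0.79). The E-box CACGTG was found before Cry1 and Bhlhe41, which rose, and before Per1, Tef and Ciart, which did not pass, of 16 clock genes with a promoter, and in 6.02% of all promoters. The sources used here do not give the hour of dissection, and its part in these values was not tested.

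Activity and hormone response genes gave less clear results. None of 16 immediate early genes was called by edgeR over 84 libraries or by DESeq2, none had an unadjusted p under 0.05, and limma voom called 1, although the log2 fold changes of all 16 lay above 0 with a median of 0.27, and 1 was called over 83. Arc, an activity-regulated synaptic protein, had 134 to 435 CPM in the 12-week libraries (median 185), against 57.6 to 407 CPM in the 0-day libraries (median 120.2). The groups overlapped, and replicate 1 at 0 days stood far above the other 5 of its group. Of 14 glucocorticoid target genes 4 rose and none fell, against 10.8% and 9.99% of all genes, and Plin4 is one of them. Without replicate 5 at 12 weeks 1 rose, and 2 rose without any of replicate 6 at 12 weeks and 1, 2 and 3 at 0 days. With offsets over 84 libraries 2 rose and 0 fell, against 6.98% and 4.22% of all genes.

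Among genes of energy supply more rose than fell. Of 20 glycolysis and hypoxia genes 8 rose, against 10.8% of all genes, and over 83 libraries with offsets 5 rose and 1 fell. Aldoa, an enzyme of glycolysis, had 1286 to 1354 CPM in the 12-week libraries (median 1318), against 1102 to 1213 CPM in the 0-day libraries (median 1163). The groups did not overlap, and the log2 fold change was 0.19 ± 0.02 (adjusted p = 4.5e-10). Slc2a1, the glucose transporter of the blood-brain barrier, rose by 0.52 ± 0.12 (adjusted p = 7.4e-04). Of 22 nuclear genes of oxidative phosphorylation 8 rose and 1 fell, and 5 rose without any of replicate 5 at 12 weeks and 3 and 4 at 0 days. Cyc1, of complex III, rose by 0.23 ± 0.04, but not with offsets (adjusted p = 0.37). Of 12 genes of mitochondrial DNA 1 rose and 4 fell, and with offsets none fell. The number that fell was 2 without replicate 2 at 0 days and 1 without any of replicates 3, 4, 5 and 6 at 12 weeks and 4 and 6 at 0 days. The gene that rose, mt-Co2, rested on replicate 3 at 12 weeks, which had 133 CPM where the other 5 had 20.9 to 41.1 CPM, and without it the log2 fold change was 0.15 (adjusted p = 0.67).

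At synapses, 6 of 15 vesicle and release genes rose and 1 fell, against 10.8% and 9.99% of all genes. Without replicate 5 at 12 weeks or 1 at 0 days 3 rose. Syn1, synapsin I, rose by 0.26 ± 0.04 (adjusted p = 4.1e-07). The gene that fell, the active zone scaffold Pclo (-0.16), had a positive change with offsets (0.02). Of 19 glutamate and GABA receptor subunits 4 fell and 1 rose, but with offsets over 84 libraries 1 fell and none rose. The single rise was lost without any of replicates 4, 5 and 6 at 12 weeks and 3 at 0 days. Gria2, a main AMPA receptor subunit with a GC-poor transcript, changed by -0.27 ± 0.06, but did not pass with offsets (-0.04, adjusted p = 0.68). Gabrb2 changed by -0.34 ± 0.06 (adjusted p = 3.1e-05). The call of Gria4 was lost with offsets (adjusted p = 0.73), and also without replicate 4 at 12 weeks or 5 at 0 days (adjusted p 0.065 and 0.060). Among 15 potassium channel genes Kcna2, of fast axons, fell by 0.40 (adjusted p = 6.9e-06). Kcnq3 (-0.24) was the other call, lost without replicates 1 or 5 at 12 weeks or 1, 2 or 6 at 0 days (adjusted p 0.052 to 0.11) and with offsets (-0.09, adjusted p = 0.58). Over 83 libraries 4 of the 15 rose and 3 fell. Ptprd, a synaptic adhesion receptor in none of the lists, had 167.8 to 207 CPM in the 12-week libraries (median 188), against 237 to 262 CPM in the 0-day libraries (median 249), without overlap. It fell by 0.42 on the log2 scale, with the smallest p of all lower genes (adjusted p = 3.0e-13).

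Few immune genes were called over 84 libraries without offsets. None of 10 MHC genes was called by edgeR over 84 or 83 libraries or by DESeq2, 2 had an unadjusted p under 0.05 and limma voom called 1. Without replicate 2 at 0 days 2 rose, and without replicate 6 at 0 days 1 fell. Of 12 microglial markers 1, Tmem119, rose, at 0.39 ± 0.08 (adjusted p = 1.1e-04). Of 17 interferon response genes 1, the GTPase Gbp3, fell over 84 libraries, at -0.83 ± 0.24 (adjusted p = 0.0069), and 4 fell over 83, while none rose over either. The number that fell also reached 5 without replicate 3 at 12 weeks or 6 at 0 days, 4 without replicate 3 and 3 without replicate 4 at 0 days, and 2 without replicates 2 or 4 at 12 weeks. The median of the list was -0.43, and it summed to 95.2 to 147 CPM (median 106) at 12 weeks, against 84.4 to 181 CPM (median 127) at 0 days, so that the groups overlapped. Cxcl10, an interferon-induced chemokine, had 0 to 0.489 CPM in the 12-week libraries (median 0.265), against 0.129 to 3.93 CPM in the 0-day libraries (median 0.687), levels of few counts that overlapped, at a log2 fold change of -2.40 ± 0.64 (adjusted p = 0.0036). Of 14 genes of cytokines, chemokines and reactive glia 2 rose and 1, Cxcl10, fell over 84 libraries, and 3 rose and 1 fell over 83. With offsets over 84 libraries 3 rose and 2 fell, against 6.98% and 4.22% of all genes. With offsets over 83 libraries 4 rose and 2 fell, against 11.8% and 7.09%. C4b, a complement component, rose by 0.37 ± 0.07 (adjusted p = 5.3e-05), and Cx3cl1, the neuronal ligand of microglia, by 0.27 ± 0.06. Il33, an alarmin of glia, did not pass over 84 libraries and passed over 83, at 0.48 ± 0.08 (adjusted p = 1.0e-06).

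Some of the 12 highest changes lay outside the lists. Klf2 and Klf4, transcription factors of endothelium under flow, had log2 fold changes of 0.79 ± 0.15 and 0.78 ± 0.15 (adjusted p = 7.3e-05 and 3.7e-05), and Sox18, of endothelial cells, 0.75 ± 0.16. Tinagl1, a matricellular protein, and Xdh, xanthine dehydrogenase, rose by 0.86 ± 0.14 and 0.84 ± 0.17. For Klf2, Klf4, Tinagl1 and Xdh the groups did not overlap. Cebpb, a transcription factor of inflammation and fat cell formation, had 2.18 to 11.0 CPM in the 12-week libraries (median 9.54), against 4.37 to 5.51 CPM in the 0-day libraries (median 4.56). It rose by 0.82 ± 0.22 (adjusted p = 0.0046), but the groups overlapped, and with offsets over 84 libraries the adjusted p was 0.081. Adnp, a nuclear protein of chromatin remodelling, had 1.71 to 10.5 CPM in the 12-week libraries (median 7.63), against 3.33 to 5.33 CPM in the 0-day libraries (median 4.21). It rose by 0.79 ± 0.24 (adjusted p = 0.012) with overlapping groups, and without replicate 5 at 12 weeks the adjusted p was 0.066.

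Vessel and blood markers showed few calls, and the summed astrocyte markers were lower at 12 weeks. Of 12 endothelial and pericyte markers 1 rose and 1 fell. The rise was lost without any of replicates 1, 4 and 6 at 12 weeks and 2 and 4 at 0 days, and 2 fell without replicate 4 at 12 weeks. The gene that fell was the transporter Slco1a4, at -0.42 ± 0.06. The 5 blood genes summed to 94.3 to 147 CPM (median 105) at 12 weeks, against 60.3 to 112.1 CPM (median 92.3) at 0 days, and none was called by edgeR over 84 or 83 libraries, by DESeq2 or by limma voom, or had an unadjusted p under 0.05. Of 12 astrocyte markers 1 rose and 3 fell over 84 libraries, but the rise was lost without any 1 of 10 libraries, all but replicates 3 and 6 at 0 days. Over 83 libraries 3 rose and 3 fell, and with offsets over 84 libraries 1 rose and 1 fell. The astrocyte markers summed to 4269 to 4459.9 CPM (median 4389) at 12 weeks, against 4599 to 5124 CPM (median 4782) at 0 days, and these sums did not overlap. The median log2 fold change of the 12 astrocyte markers was only -0.04, and 4 of them lay above 0. The glutamate transporter Slc1a2 changed by -0.29 ± 0.05 and the bicarbonate transporter Slc4a4 by -0.21 ± 0.03, Slc1a2 not with offsets over 84 libraries (adjusted p = 0.064).

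Among the lowest changes of all genes of at least 5 CPM were several outside the lists. Xkr4, of a family of membrane scramblases, had 7.04 to 11.4 CPM in the 12-week libraries (median 7.89), against 9.59 to 21.2 CPM in the 0-day libraries (median 16.8). They overlapped only in replicate 6 at 12 weeks, which lay above replicate 4 at 0 days, and the log2 fold change was -0.99 ± 0.14 (adjusted p = 1.4e-07). Lcor, a corepressor of nuclear receptors, and Pla2g4e, a phospholipase, changed by -0.88 ± 0.12 and -0.81 ± 0.12, both without overlap. Gm38394, a predicted gene, and Tcp11l1 changed by -0.82 ± 0.10 and -0.74 ± 0.09, again without overlap. Adamts16, a secreted protease, Tex15, known from male germ cells, and the interferon-induced GTPase Gbp9 fell by 0.79, 0.74 and 0.73 on the log2 scale (adjusted p = 0.0014, 9.8e-04 and 0.0034), and their groups overlapped. Irgm2, another such GTPase, had 4.33 to 7.33 CPM in the 12-week libraries (median 5.93), against 4.49 to 17.6 CPM in the 0-day libraries (median 7.75). It fell by 0.70 (adjusted p = 0.013), but the groups overlapped, and without replicate 1 at 0 days the adjusted p was 0.15. Peg3, an imprinted transcription factor, did not pass over 84 libraries (adjusted p = 0.052) and passed over 83, at -0.28 (adjusted p = 7.8e-13).

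The genes of smallest p outside the lists had small changes and tight groups. Gpcpd1, a phosphodiesterase of choline lipid breakdown, had 88.6 to 108 CPM in the 12-week libraries (median 93.9), against 125 to 134 CPM in the 0-day libraries (median 131). It fell by 0.45 on the log2 scale (adjusted p = 2.0e-11). Phf14, a chromatin protein with PHD fingers, and Rimklb, a ligase that makes N-acetylaspartylglutamate, fell by 0.39 and 0.40 (adjusted p = 7.3e-11 and 2.6e-10). Git1, a synaptic scaffold, had 254 to 302 CPM in the 12-week libraries (median 281), against 199 to 235 CPM in the 0-day libraries (median 206). It rose by 0.41 ± 0.05, and Dmtn, an actin-bundling protein, by 0.30 ± 0.03 (adjusted p = 2.6e-09 and 7.3e-11). In none of these 5 did the groups overlap.

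Both cold-inducible RNA-binding proteins fell. Cirbp had 92.8 to 109 CPM in the 12-week libraries (median 98.1), against 109.9 to 133 CPM in the 0-day libraries (median 117), without overlap. It fell by 0.26 on the log2 scale (adjusted p = 0.015), and without replicate 6 at 0 days the adjusted p was 0.051. Rbm3 averaged 76.7 ± 6.76 CPM at 12 weeks and 87.5 ± 6.66 CPM at 0 days (SD, n = 6 each). Its groups overlapped, and it fell by 0.19 (adjusted p = 0.027), but not without any of replicates 3, 4, 5 and 6 at 12 weeks and 3 at 0 days (adjusted p 0.051 to 0.092) or with offsets (adjusted p = 0.49).

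The other lists held few calls over 84 libraries. In the list of 17 fatty acid oxidation genes and PPAR targets 1 rose, the pyruvate dehydrogenase kinase Pdk4, and 1 fell, the fatty acid carrier Cd36. Cd36 averaged 1.08 ± 0.353 CPM at 12 weeks and 1.89 ± 0.377 CPM at 0 days (SD, n = 6 each), with overlap. It fell by 0.81 on the log2 scale (adjusted p = 0.018), but without replicate 4 at 12 weeks the adjusted p was 0.058, and with offsets 0.084. Of 10 genes of meninges and fibroblasts 1 rose and 1, Col3a1, fell. The one that rose, the prostaglandin D synthase Ptgds, had 1275 to 1473 CPM in the 12-week libraries (median 1349), against 869.5 to 1382 CPM in the 0-day libraries (median 1178). It rose by 0.27 ± 0.10 (adjusted p = 0.039), but the groups overlapped, and the call was lost without any of replicates 1, 3, 4, 5 and 6 at 12 weeks and 1, 3 and 6 at 0 days (adjusted p 0.0502 to 0.16) and with offsets (adjusted p = 0.26).

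Single calls came from 3 further lists. In the lists of olfactory sensory neurons, of ensheathing cells and of cortical excitatory neurons, 1 of 10, 1 of 9 and 1 of 10 genes rose and none fell. The first was lost without any of replicates 1, 3, 4 and 6 at 12 weeks and 2, 3 and 6 at 0 days, and the second without any of replicates 1 and 5 at 12 weeks and 1, 2, 5 and 6 at 0 days. Without replicate 2 at 12 weeks 2 ensheathing genes rose, and without replicate 3 at 12 weeks 1 fell. Over 83 libraries 1 sensory neuron gene rose and 1 fell, 1 ensheathing gene rose and 2 fell, and 3 cortical genes rose and 1 fell. For the cortical list 2 rose without replicate 3 at 12 weeks or 6 at 0 days, and 1 fell without replicate 2 at 12 weeks. Of 7 dopaminergic and 5 other periglomerular genes none was called by edgeR over 84 libraries or by DESeq2, with 3 and 1 at an unadjusted p under 0.05, and limma voom called 1 and 2. Over 83 libraries 1 dopaminergic gene rose and 1 fell, and 3 of the 5 other periglomerular genes rose (2 with offsets). Of 12 imprinted and growth genes none was called by edgeR over 84 libraries, with 3 at an unadjusted p under 0.05, while DESeq2 called 1 and limma voom 4. Over 83 libraries 2 of them rose and 2 fell. Of 6 choroid plexus and ependyma genes none was called by edgeR over 84 libraries or by DESeq2, or had an unadjusted p under 0.05, but limma voom called 1, and edgeR over 83 libraries called 1 higher. Without replicate 1 at 0 days 1 dopaminergic gene fell, and without replicates 5 or 6 at 0 days 1 other periglomerular or 1 imprinted gene rose.

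**Figure D4:**
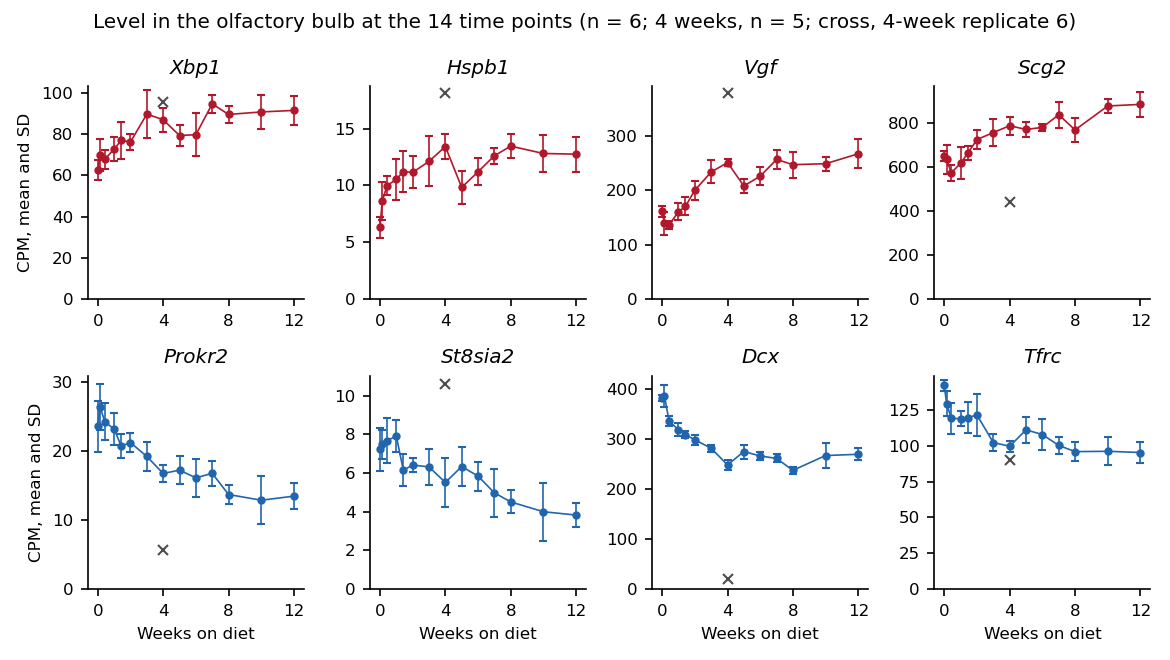
Level of 8 genes at the 14 time points against weeks on the diet (CPM; points are means with SD, n = 6 per time point and n = 5 at 4 weeks; the cross is 4 weeks replicate 6). Xbp1, Hspb1, Vgf and Scg2 run upwards and Prokr2, St8sia2, Dcx and Tfrc downwards, and the cross stands far from the other 4-week libraries for Dcx, where it is at 20.9 CPM.

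Libraries from 1 day to 10 weeks, none of which is in the comparison of 12 weeks with 0 days, gave a separate measure. A slope on weeks was fitted to these 72 libraries, and 4385 of 14891 genes (29.4%) had one that passed, 2188 upwards (14.7%) and 2197 downwards (14.8%). With offsets 12.5% passed upwards and 8.47% downwards. Of 3104 genes called at 12 weeks and tested here, 97.4% had a slope of the same sign, against 77.9% of all genes, and 72.5% passed with that sign, against 28.3% of all genes. Without the library labelled 4 weeks replicate 6, 71 libraries gave 5654 slopes (37.8%), 19.4% upwards and 18.5% downwards, and 73.5% of the 4303 calls tested passed with the same sign, against 35.7% of all genes. From 2 to 10 weeks alone only 20 slopes passed, and 155 without that library.

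Slopes over these libraries were read for the lists described above. Of the 14 unfolded protein response genes 12 had a slope that passed upwards and none downwards. Xbp1 rose by 0.040 per week on the log2 scale (adjusted p = 8.7e-08) and Vgf by 0.085 (adjusted p = 8.0e-11). Of the 16 neuropeptide genes 9 passed upwards, and of the 16 neuroblast genes 10 downwards. Prokr2 had a slope of -0.098 (adjusted p = 2.2e-12) and St8sia2 one of -0.088 (adjusted p = 1.9e-08). Of the 22 oxidative phosphorylation genes 16 passed upwards and 1 downwards. Of the cholesterol genes 4 of 23 passed downwards and 2 upwards, where 14.8% and 14.7% of all genes did. Plin4 (adjusted p = 0.21) and Gbp3 (adjusted p = 0.89) did not pass.

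The same interval in neocortex and hippocampus, other forebrain tissues on the same schedule, was set beside the bulb. The change in bulb differed from that in neocortex in 780 of 15291 genes (5.1%), and from that in hippocampus in 2991 of 15314 (19.5%), by edgeR's test of the difference over all libraries of both tissues. Of the 3107 genes called in bulb, 14.5% differed from neocortex and 47.5% from hippocampus. With offsets these counts over all genes were 464 and 781, and without the library labelled 4 weeks replicate 6 they were 1321 (8.61%) and 3715 (24.2%).

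The dense-core granule genes Ptprn, Vgf and Scg2 rose more in bulb than in hippocampus. Ptprn rose in neocortex by 0.23 ± 0.04, and the bulb's change exceeded it by 0.31 ± 0.06 (adjusted p of the difference 1.2e-04). In hippocampus its log2 fold change of 0.10 ± 0.05 did not pass, with a difference of 0.44 ± 0.07 (adjusted p = 3.5e-07). For Vgf the bulb exceeded hippocampus by 0.62 ± 0.10 (adjusted p = 1.3e-06), while the difference from neocortex, 0.27 ± 0.09, passed only without the library labelled 4 weeks replicate 6 (adjusted p = 0.075 with it and 0.018 without it). Scg2 gave the same picture, with a difference of 0.44 ± 0.09 from hippocampus (adjusted p = 5.9e-05) and one of 0.24 ± 0.09 from neocortex (adjusted p = 0.086 with that library and 0.0088 without it). Adcyap1 and Penk rose in bulb alone of the 3 tissues at this threshold, and their changes differed from those in neocortex by 0.47 ± 0.14 and 0.44 ± 0.13 (adjusted p = 0.022 and 0.024) and from those in hippocampus by 0.57 ± 0.20 and 0.46 ± 0.16 (adjusted p = 0.028 and 0.023). With offsets the differences of Penk did not pass (adjusted p = 0.091 against neocortex and 0.30 against hippocampus). Those of Vgf and Scg2 from neocortex, 0.14 ± 0.10 and 0.24 ± 0.09 with offsets over all libraries, did not pass either (adjusted p = 0.51 and 0.12).

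**Figure D5:**
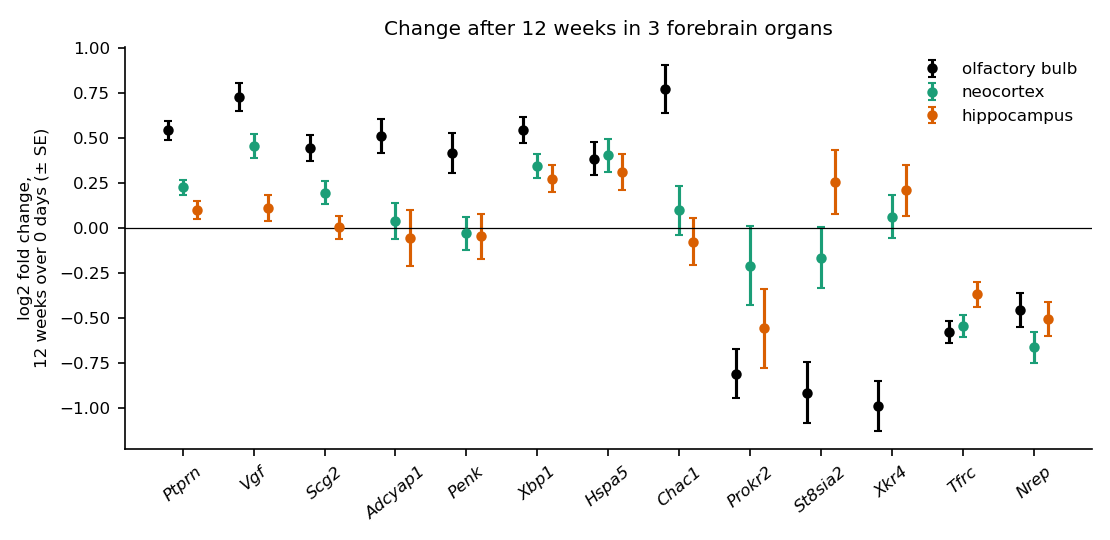
Log2 fold change of 13 genes at 12 weeks over 0 days (points; bars are SE) in olfactory bulb, neocortex and hippocampus (n = 6 libraries per time point and tissue). Penk at 0.42, Adcyap1 at 0.51, St8sia2 at -0.92 and Xkr4 at -0.99 in bulb lie farther from 0 than in the other tissues, while Hspa5, Tfrc and Nrep changed alike in direction in all 3.

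Genes of folding rose in the other tissues as well. Of the 14 unfolded protein response genes 9 rose in neocortex, against 11.3% of all genes tested there, and 3 in hippocampus, against 12.9%. Of these 14, 1 differed from bulb in neocortex and 4 in hippocampus, where 5.1% and 19.5% of all genes did. Of the 14 heat shock and folding genes 9 rose in neocortex and 8 in hippocampus, where 2 and 1 differed from bulb. Hspa5 rose by 0.40 ± 0.09 in neocortex and 0.31 ± 0.10 in hippocampus, and neither difference from bulb passed (adjusted p = 0.97 and 0.78). Xbp1 rose by 0.34 ± 0.07 and 0.28 ± 0.08. Its difference from hippocampus, 0.27 ± 0.11, had an adjusted p of 0.063 with the library labelled 4 weeks replicate 6 and 0.0495 without it. Chac1 differed from both tissues, by 0.67 ± 0.20 from neocortex and 0.84 ± 0.19 from hippocampus (adjusted p = 0.023 and 3.4e-04), and Atf4 from hippocampus by 0.27 ± 0.07 (adjusted p = 0.0011). With offsets the difference of Chac1 from neocortex (adjusted p = 0.062) and that of Atf4 from hippocampus (adjusted p = 0.36) did not pass. Nor did that of Xbp1 from hippocampus, at 0.15 ± 0.11 with offsets over all libraries (adjusted p = 0.47).

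Among the genes that fell, St8sia2 and Xkr4 differed from both tissues. The bulb's change in St8sia2 lay -0.75 ± 0.24 from that in neocortex and -1.17 ± 0.24 from that in hippocampus (adjusted p = 0.043 and 1.2e-04), and the first did not pass with offsets (adjusted p = 0.068). For Xkr4 these differences were -1.06 ± 0.18 and -1.20 ± 0.20 (adjusted p = 8.6e-06 and 1.0e-06). Tfrc fell in all 3 tissues, with log2 fold changes of -0.54 ± 0.06 in neocortex and -0.37 ± 0.07 in hippocampus, and no difference passed (adjusted p = 0.89 and 0.12). Nrep likewise fell, with -0.66 ± 0.09 and -0.51 ± 0.09, and its differences did not pass (adjusted p = 0.36 and 0.85). Prokr2 had log2 fold changes of -0.21 ± 0.22 in neocortex and -0.56 ± 0.22 in hippocampus, neither of which passed, and neither difference from bulb passed (adjusted p = 0.19 and 0.57). Of the 16 neuroblast and young neuron genes 6 fell and 2 rose in neocortex, and 6 fell and 0 rose in hippocampus. In these tissues 1 and 4 of the 16 differed from bulb, where 5.1% and 19.5% of all genes did. Of the 9 oligodendrocyte precursor genes 5 fell in neocortex and 3 in hippocampus. In hippocampus 0 of the 22 oxidative phosphorylation genes rose and 15 fell, where 8.36% of all genes fell, and 18 of the 22 differed from bulb. In neocortex 3 rose and 7 fell, where 8.61% of all genes fell, and 10 differed from bulb. These counts are without offsets, and the list was not counted with them in these tissues. Over all genes, differences from hippocampus numbered 781 with offsets and 2991 without, and those from neocortex 464 and 780. In bulb 5 of the 22 rose and 0 fell with offsets over 84 libraries.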

How the data were processed

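RNA of olfactory bulb, neocortex and hippocampus was sequenced from poly(A), strand-specific libraries, per the labels' protocols. The deposited values are counts of reads per gene; per the submitters' processing notes the authors counted with featureCounts 1.6.3 and aligned to GRCm38 with HISAT2 2.1.0; Trimmomatic 0.38, FastQC 0.11.7 and SAMtools 1.9 are also named there. Which annotation and strand setting were used is not given there, and reads of antisense partners may therefore be shared. Columns of 852 libraries from other organs were not used.

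Counts were tested in R 4.3.3 with edgeR 4.0.16 (TMM scaling, the default filter on low counts, quasi-likelihood test, two-sided, Benjamini-Hochberg adjustment over all genes tested, threshold 0.05). All 84 bulb libraries shared 1 estimate of spread. SE is that of the log2 fold change. Offsets for GC content and length were splines with 5 degrees of freedom per library, over the 14758 genes with an annotation (GENCODE M21). DESeq2 1.42.0, limma 3.58.1 with voom, other scaling, no filter, the 12 libraries alone and each library left out were alternatives. The 83-library fits, and the runs that set size factors and offsets together, were added after seeing the data. Named genes were taken, among called genes of at least 5 CPM, from the 12 highest and 12 lowest log2 fold changes and the 6 smallest p each way, and from every list its 3 genes of lowest p, the bulb markers that check the label, and the 5 smallest p each way in each difference between tissues. Other genes named were chosen after their values were seen, and some list members are not reported here. The genes compared and the 40 lists were chosen with earlier results of these data known.

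Replicate numbers were checked for pairing. Same-numbered bulb libraries of 12 weeks and 0 days had correlations of their deviations from 0.02 to 0.11, with 1 of 6 over 0.1, so the numbers were not used to pair. On simulated data of 14935 genes, the test of 12 weeks against 0 days found 49.3% of genes changed by 1.25-fold, 74.6% of those changed by 1.5-fold and 89.4% of those changed by 2-fold, and 2.74% of its calls were false. The simulated libraries had no GC tilt and their genes varied independently. The 2.74% therefore does not measure the share of false calls in the real comparison.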

Additional observations from a re-analysis of the deposited data

Results flagged for a closer look

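In 24 of 284 groups of 6 values examined, 1 library stood apart from the other 5 by the gap between neighbouring values. Chance alone marks about 1 in 20 groups in this way. No explanation of these values was tested.

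Among the chaperone, stress and peptide genes this concerned 6. Xbp1 had 106 CPM in replicate 6 at 12 weeks, where the other 5 had 87.0 to 90.3 CPM. Hspa8 had 1570 CPM in replicate 2 at 12 weeks, where the other 5 had 1373 to 1417 CPM. Scg2 had 997 CPM in replicate 2 at 12 weeks, where the other 5 had 836 to 889.8 CPM. Sesn2 had 22.6 CPM in replicate 2 at 0 days, where the other 5 had 16.7 to 18.9 CPM. Hspa1a had 8.83 CPM in replicate 3 at 0 days, where the other 5 had 5.96 to 6.98 CPM. Trh, which passed only over 83 libraries, had 77 CPM in replicate 3 at 12 weeks, where the other 5 had 85.2 to 88.5 CPM.

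Among matrix, vessel and metabolic genes, 1 library stood apart in these. Col3a1 showed 5.59 CPM in replicate 5 at 12 weeks, where the other 5 had 8.55 to 9.82 CPM. Lama2 showed 23.2 CPM in replicate 1 at 0 days, where the other 5 had 29.6 to 31.7 CPM. Sox18 showed 7 CPM in replicate 6 at 0 days, where the other 5 had 4.29 to 5.23 CPM. Hsd17b7 showed 23.8 CPM in replicate 3 at 0 days, where the other 5 had 17.5 to 19.6 CPM. Plin4 showed 15.8 CPM in replicate 6 at 0 days, where the other 5 had 3.02 to 6.87 CPM. Insr showed 93.7 CPM in replicate 2 at 12 weeks, where the other 5 had 83.4 to 85.2 CPM.

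Arc and Npas4, both immediate early genes, were set apart by the same library. Arc reached 407 CPM in replicate 1 at 0 days, where the other 5 had 57.6 to 181 CPM. Npas4 reached 116 CPM in replicate 1 at 0 days, where the other 5 had 32.2 to 59.3 CPM. Gabrb2 reached 129 CPM in replicate 5 at 0 days, where the other 5 had 108 to 115 CPM. Kcnq3 was at 47.8 CPM in replicate 1 at 12 weeks, where the other 5 had 53.4 to 55.4 CPM. Slc4a4 was at 453 CPM in replicate 1 at 0 days, where the other 5 had 481 to 492 CPM. mt-Co2 reached 133 CPM in replicate 3 at 12 weeks, where the other 5 had 20.9 to 41.1 CPM, and its 0-day group was set apart by replicate 6 at 45.6 CPM, where the other 5 had 22.8 to 27.3 CPM.

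The remaining genes were chosen as extremes or for their difference between tissues. Xkr4 was at 11.4 CPM in replicate 6 at 12 weeks, where the other 5 had 7.04 to 8.36 CPM. Lars2, a mitochondrial tRNA synthetase, was at 76.5 CPM in replicate 2 at 12 weeks, where the other 5 had 129 to 158 CPM. Cbln4, a secreted synaptic organiser, was at 39.4 CPM in replicate 4 at 0 days, where the other 5 had 27.4 to 30.9 CPM, and its call was lost without that library (adjusted p = 0.071, edgeR). Rimklb was at 63.9 CPM in replicate 1 at 0 days, where the other 5 had 69.4 to 71.3 CPM. Dpp8, a peptidase, was at 196 CPM in replicate 6 at 0 days, where the other 5 had 184 to 188 CPM.

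The 12-week log2 change in bulb differed from that in another tissue, by edgeR's test of the difference over all genes, in 32 of the results in the text. Against neocortex the bulb's change was higher by 0.67 for Chac1, 0.31 for Ptprn, 0.47 for Adcyap1 and 0.44 for Penk. It was also higher by 0.33 for Cbx6, a Polycomb protein, 0.53 for Camk2n1, an inhibitor of a synaptic kinase, 0.92 for Rps29, a ribosomal protein, and 1.04 for Atp5k, of the ATP synthase. Rps29 and Atp5k were not called in bulb (0.11 and 0.10) and had -0.81 ± 0.08 and -0.94 ± 0.09 in neocortex. The call of Cbx6 in bulb (0.09) was lost without any of replicates 3, 5 and 6 at 12 weeks and 2, 3, 4 and 5 at 0 days (adjusted p 0.055 to 0.14). Differences below 0 were -0.75 for St8sia2, -1.06 for Xkr4, -1.14 for Gm38394, -1.32 for Lars2, -0.86 for Cbln4 and -0.34 for Unc80, a subunit of a sodium leak channel. Lars2 had 1.23 ± 0.10 in neocortex and was not called in bulb (-0.09).

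Against hippocampus the differences above 0 were 0.27 for Atf4, 0.84 for Chac1, 0.62 for Vgf, 0.44 for Scg2, 0.44 for Ptprn, 0.57 for Adcyap1 and 0.46 for Penk. Further ones were 0.38 for Gde1, 0.67 for Phldb1 and 0.37 for Rpl8. Differences below 0 were -1.17 for St8sia2, -1.2 for Xkr4, -0.83 for Gm38394 and -0.54 for Unc80. They were -0.52 for Map1b, a microtubule protein, -0.49 for Aff4, a scaffold of transcription elongation, -0.48 for Dpp8 and -0.45 for Srgap3. The bulb change of Srgap3 (-0.08) lost its call without any of replicates 1 and 4 at 12 weeks and 4 and 6 at 0 days (adjusted p 0.057 to 0.070).

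With the GC and length offsets, the differences from neocortex of Chac1, Penk and St8sia2 and those from hippocampus of Atf4, Penk and Rpl8 no longer passed (adjusted p 0.062 to 0.36), and the other differences given here did. The bulb changes of Cbx6, Gde1, Rpl8, Aff4, Dpp8 and Srgap3 were themselves not called with those offsets over 84 libraries (adjusted p 0.060 to 0.71).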

How the results depend on the processing

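Of 3107 genes called at 12 weeks against 0 days, the alternatives gave 1674 with the GC and length offsets, 1668 with those offsets and RLE size factors, and 199 at a fold of at least 1.5, which is a stricter rule. Other counts stayed within 1.5 times, at 3089 with RLE size factors, 2834 with no filter, 3135 by DESeq2, 4610 by limma voom, 3748 from the 12 libraries alone and 4310 without the library labelled 4 weeks replicate 6. Leaving out each library in turn gave 2460 to 3360. With the replicate block 3244 genes were called, and all 120 called genes of the text kept their call. Same-numbered libraries correlated best with each other in 4 of 6 pairs, a hint from the data and not the design. Slopes numbered 4385, but 20 from 2 to 10 weeks alone and 155 there without the library labelled 4 weeks replicate 6, fits with fewer libraries. Without that library the time points gave 3 calls at 1 day, 547 at 3 days, 1302 at 1 week, 1659 at 10 days, 1573 at 2 weeks, 2803 at 5 weeks, 3106 at 6 weeks and 3399 at 10 weeks. Differences from neocortex numbered 780, but 464 with offsets, 1264 from the 24 libraries alone, 1556 by limma voom and 1321 without that library. Differences from hippocampus numbered 2991, but 781 with offsets. With offsets 88 of the 120 called genes kept their call, 30 lost it and 2 turned: Tubb3 to -0.01 (-0.0112, and -0.0115 with RLE size factors and -0.0122 over 83 libraries) and Pclo to 0.02 (0.0230, 0.0229 and 0.0227). Lars2, not called, had -0.09 and turned to 0.03 (0.0277) without replicate 2 at 12 weeks and 0.02 (0.0193) with the least correlated library of both times left out, with -0.14 to 0.03 over the libraries left out in turn. The cause of these turns was not tested. Library totals of 10532464 to 20875631 counts limit what can be seen at low levels.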
